A study of Mus musculus with 30 samples.

Results

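The genes described here are 40 named mouse genes of antigen presentation and the interferon response: 7 of MHC class I presentation, 11 of MHC class II presentation and 22 that interferon induces or that carry or restrain its signal. All but Mx1 and Mx2, which the mouse annotation lists as transcribed pseudogenes, are among the 21887 protein-coding genes that served as the comparison. A gene was given a peak when a summit, the highest base of a peak, lay within 1 kb of its RefSeq start or end on GRCm38. Chromatin immunoprecipitation with sequencing had been done for UTX, a histone demethylase in the MLL3 and MLL4 complexes, and for Menin, the scaffold protein that tethers MLL1 and MLL2 to chromatin. The cells were WT-MA9, mouse acute myeloid leukaemia cells with stable expression of pMSCV-MLL-AF9-GFP, grown with IL6, IL3 and SCF. They received MI-503, an inhibitor of the contact between Menin and MLL, or the vehicle DMSO, and were collected on day 4. The dose of the inhibitor is not given in sources used here.

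Peak lists of 4 libraries were used: UTX in MI-503, UTX in DMSO, Menin in MI-503 and Menin in DMSO. All 4 share the MLL-AF9 fusion, so none shows cells without it, and 26 of the 30 libraries in the series are not analysed here. Each condition had 1 library, so no difference between lists has a replicate check and no test was made. The UTX list held 14231 peaks in MI-503 and 217 in DMSO, and the Menin list 8 in MI-503 and 11195 in DMSO. With both antibodies the short list came from the larger library: the spacing of the pileup values put UTX DMSO at no less than 1.14 times and Menin MI-503 at no less than 1.35 times their input, while the UTX MI-503 and Menin DMSO libraries were no larger than theirs. This reading assumes the default scaling of MACS2, in which the larger of library and input is scaled down. Absolute depth is unknown, so a gene without a peak was not shown to lack the protein.

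MHC class I molecules sit on nearly all nucleated cells and show peptides from inside the cell to CD8 T cells, whereas class II molecules belong chiefly to dendritic cells, B cells and macrophages and show peptides from engulfed material to CD4 T cells. Class II promoters carry an X box, bound by the RFX complex, beside a Y box, a reversed CCAAT bound by NF-Y, and the class II transactivator CIITA docks on that assembly. Interferons act through their receptors, JAK kinases and STAT factors, and type I interferon acts on genes with an interferon-stimulated response element.

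Promoter sequences of 7 of the 40 genes are given, since the results turn on which of them had a summit. Each runs 5′ to 3′ from 250 bases before a RefSeq start site to the 50 bases that begin with it, on GRCm38.p6. Capitals mark CCAAT, the core of the Y box, AGCAAC, a core of the X box, and a form of the interferon-stimulated response element made of GAAA, any 2 bases and GAAA again. Each was searched on both strands, so ATTGG, and TTTC, any 2 bases and TTTC, are marked as well. H2-K1 (chr17:34000298-34000597, minus strand) had a UTX MI-503 summit at base 276 of the window, and Tap1 (chr17:34187306-34187605, plus strand) had a UTX MI-503 summit at base 204 and a Menin DMSO summit at base 223. Rfx5 (chr3:94953858-94954157, plus strand) had a UTX MI-503 summit at base 159, and H2-Eb1 (chr17:34305617-34305916, plus strand) had none. Trim25 (chr11:88999153-88999452, plus strand) had a UTX MI-503 summit at base 223 and a Menin DMSO summit at base 213. Isg15 (chr4:156200769-156201068, minus strand) and Ifit1 (chr19:34640639-34640938, plus strand), classical interferon targets, had none.
H2-K1: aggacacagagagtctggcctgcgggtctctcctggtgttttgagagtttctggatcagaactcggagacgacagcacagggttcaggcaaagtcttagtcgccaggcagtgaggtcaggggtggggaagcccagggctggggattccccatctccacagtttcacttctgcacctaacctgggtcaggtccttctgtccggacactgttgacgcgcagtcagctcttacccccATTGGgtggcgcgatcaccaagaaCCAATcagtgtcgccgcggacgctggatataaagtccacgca
Tap1: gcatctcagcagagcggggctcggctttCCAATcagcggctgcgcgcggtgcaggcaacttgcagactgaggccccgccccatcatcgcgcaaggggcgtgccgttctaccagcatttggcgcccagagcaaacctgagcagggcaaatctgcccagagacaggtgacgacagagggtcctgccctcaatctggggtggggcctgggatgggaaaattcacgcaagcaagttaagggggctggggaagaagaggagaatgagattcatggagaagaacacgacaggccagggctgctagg
Rfx5: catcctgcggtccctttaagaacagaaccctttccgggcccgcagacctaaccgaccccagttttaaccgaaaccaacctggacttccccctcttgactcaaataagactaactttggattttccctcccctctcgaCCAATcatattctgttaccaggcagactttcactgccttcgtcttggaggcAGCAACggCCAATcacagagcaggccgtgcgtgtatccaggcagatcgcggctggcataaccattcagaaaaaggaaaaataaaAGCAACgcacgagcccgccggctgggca
H2-Eb1: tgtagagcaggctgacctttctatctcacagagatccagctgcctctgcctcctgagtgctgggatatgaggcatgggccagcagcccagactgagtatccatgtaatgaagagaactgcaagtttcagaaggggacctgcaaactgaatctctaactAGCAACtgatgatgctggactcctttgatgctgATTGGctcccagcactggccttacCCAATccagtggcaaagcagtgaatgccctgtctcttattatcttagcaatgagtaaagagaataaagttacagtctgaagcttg
Trim25: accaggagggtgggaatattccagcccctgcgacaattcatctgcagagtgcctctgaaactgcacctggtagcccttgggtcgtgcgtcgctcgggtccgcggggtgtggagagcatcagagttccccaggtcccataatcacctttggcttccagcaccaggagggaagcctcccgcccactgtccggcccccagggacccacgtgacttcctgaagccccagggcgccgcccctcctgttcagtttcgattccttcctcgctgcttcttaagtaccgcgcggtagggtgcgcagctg
Isg15: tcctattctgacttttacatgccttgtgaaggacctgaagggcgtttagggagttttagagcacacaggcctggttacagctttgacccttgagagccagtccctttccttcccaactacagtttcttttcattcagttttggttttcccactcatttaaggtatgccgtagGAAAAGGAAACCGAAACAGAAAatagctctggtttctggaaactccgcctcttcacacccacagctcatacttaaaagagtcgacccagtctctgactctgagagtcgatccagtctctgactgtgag
Ifit1: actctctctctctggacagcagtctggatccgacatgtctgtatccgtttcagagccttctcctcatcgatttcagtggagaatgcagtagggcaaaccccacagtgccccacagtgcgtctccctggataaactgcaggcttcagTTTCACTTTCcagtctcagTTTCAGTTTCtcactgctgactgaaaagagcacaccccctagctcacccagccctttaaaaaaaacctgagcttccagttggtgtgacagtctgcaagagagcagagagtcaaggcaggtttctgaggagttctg
The H2-Eb1 promoter held AGCAAC at −92, ATTGG at −59 and CCAAT at −35, counting the start site as 0. Rfx5, whose product binds such X boxes, held AGCAAC at −62 and CCAAT at −54 in its own promoter, with further copies at +22 and −113. The Isg15 promoter held 3 overlapping response elements that began at −78, −72 and −66, and Ifit1 held 2, at −104 and −85. Trim25 held none of the 3 motifs.

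Of the 40 genes, 16 (40%) had a UTX MI-503 peak, beside 36.5% of all protein-coding genes. None had a UTX DMSO peak, where the share over all genes was 0.777%. None had a Menin MI-503 peak, where it was 0.00914%. A Menin DMSO peak was found at 10 (25%), beside 31.2% over all genes. Taken whole, the 40 genes thus had peaks at a boundary about as often as other genes. Measured from transcription starts, the UTX MI-503 share was higher, 17 of 30 genes (56.7%) beside 39.1%. Differences between the groups were not tested. The class I group had a UTX MI-503 peak at 5 of 7 genes (71.4%) and a Menin DMSO peak at 3 of 7 (42.9%). The class II group had each at 3 of 11 genes (27.3%), and the interferon group had a UTX MI-503 peak at 8 of 22 (36.4%) and a Menin DMSO peak at 4 of 22 (18.2%). The groups are small and 5 of the 7 class I genes and 6 of the 11 class II genes lie on chromosome 17, many of them as neighbours, so these counts are descriptions.

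**Figure D1:**
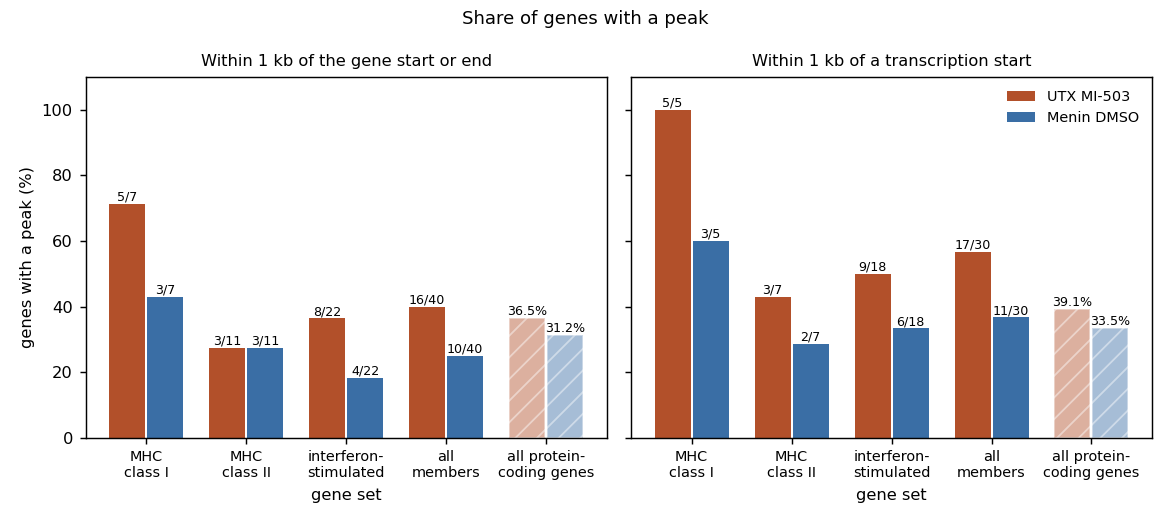
Share of genes with a peak (percent) in the UTX MI-503 list and the Menin DMSO list, for the 3 gene groups, the 40 genes together and, hatched, all protein-coding genes, by gene boundary at left and by transcription start at right. Class I stands highest in both panels, with 5 of 7 genes at a boundary for UTX MI-503, and the UTX DMSO and Menin MI-503 lists are not drawn because at most 1 of the 40 genes had a peak in either.

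Every fold below is the authors' own value for a peak, the pileup at the summit plus 1 over the local background plus 1, and is read within its own list. Among the 16 of the 40 genes with a UTX MI-503 peak, the median of the highest fold per gene was 9.52, from 3.74 to 39.3, beside 10.1 over all genes with one. Among the 10 with a Menin DMSO peak it was 7.33, from 4.12 to 13.3, beside 7.34 over all genes with one. By group the UTX MI-503 medians were 9.73 for 5 class I genes, 22.4 for 3 class II genes and 9.03 for 8 interferon genes. The class II value is the middle of 8.19, 22.4 and 39.3, and the 39.3-fold peak, counted for H2-DMa, lies inside Brd2. The Menin DMSO medians were 5.08, 7.38 and 8.48, over 3, 3 and 4 genes of the same groups. The class I value is that of a Tapbp peak whose nearest start site is that of the neighbour Rgl2. With so few genes the medians were not compared between groups.

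**Figure D2:**
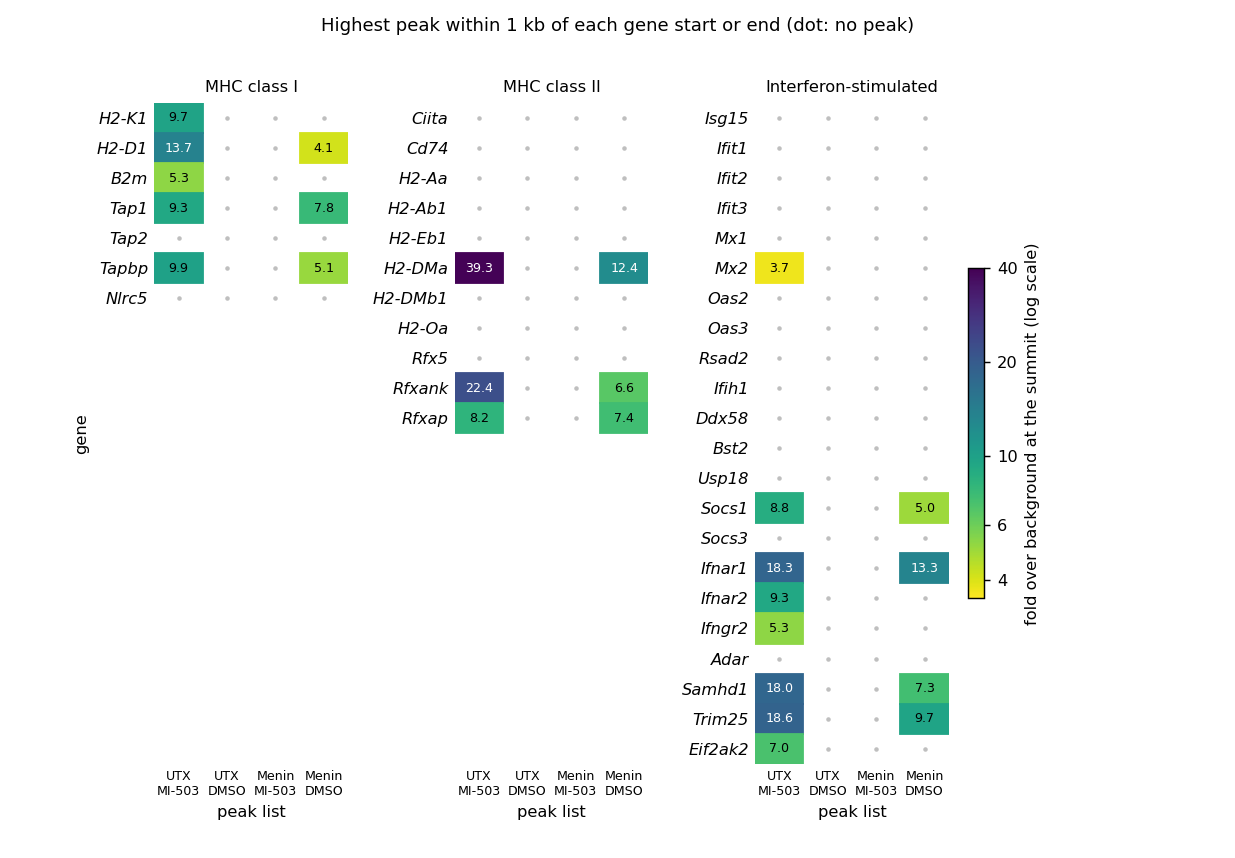
Highest fold over background at a summit within 1 kb of the start or end of each of the 40 genes, on a logarithmic colour scale, for the 4 peak lists. A dot means no peak: the UTX DMSO and Menin MI-503 columns hold dots alone, and the highest value is 39.3 at H2-DMa in the UTX MI-503 column.

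In the class I group, all 3 genes of the molecule itself had a UTX MI-503 peak and 1 had a Menin DMSO peak. Over all genes 36.5% and 31.2% had one, and a count of 3 genes is a description. H2-D1, a classical class I heavy chain, had a 13.7-fold UTX MI-503 peak (24 reads at the summit, chr17:35262807-35263260) and no UTX DMSO peak. It had no Menin MI-503 peak and a 4.12-fold Menin DMSO peak (30 reads, chr17:35262898-35263116). The summits lay 34 and 86 bp before its start site. H2-K1, the other classical heavy chain of the set, had UTX MI-503 peaks of 9.73-fold (19 reads, chr17:34000053-34000502) and 7.11-fold (12 reads), with summits 11 and 395 bp after the nearest of its annotated start sites. It had no peak in the other 3 lists, and the nearest Menin DMSO summit was 17204 bp from the gene. B2m, which encodes the invariant light chain that every class I molecule needs, had a low UTX MI-503 peak of 5.31-fold on 9 reads, 365 bp after its start. Its −log10 q of 4.47 ranked 12690th of the 14231 in its list. The nearest Menin DMSO summit to B2m was 3077 bp away. H2-K1 and H2-D1 resemble each other and further class I genes in sequence, and the treatment of reads that map to several places is not known here, so the copy to which their peaks belong is uncertain.

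Among the class I loading genes, Tap1 and Tapbp had peaks of both kinds and Tap2 had none. Tap1 and Tap2 form the transporter that carries peptides into the endoplasmic reticulum. Tap1 had UTX MI-503 peaks of 9.30-fold (16 reads, chr17:34187334-34187621) and 7.11-fold (12 reads), and a Menin DMSO peak of 7.78-fold (42 reads, chr17:34187344-34187675). The higher UTX MI-503 summit lay 47 bp and the Menin DMSO summit 28 bp before the Tap1 start, which faces the immunoproteasome gene Psmb9 across a shared promoter, so a peak here counts for both genes. The nearest summits to Tap2 were those of Tap1, 16656 bp away in the UTX MI-503 list and 16951 bp away in the Menin DMSO list. Tapbp, or tapasin, bridges the transporter and the class I molecule. At its start it had a 5.20-fold UTX MI-503 peak (9 reads, 910 bp after the start site) and a 3.73-fold Menin DMSO peak (21 reads, 98 bp after it). Its highest peaks, of 9.88-fold for UTX MI-503 (18 reads) and 5.08-fold for Menin DMSO (18 reads), lay past its far end, nearest to the start of the neighbour Rgl2. Nlrc5, the transactivator of class I genes, had no peak at a boundary. A single UTX MI-503 peak of 4.04-fold lay inside the gene, 2480 bp from its end and in the lowest 0.956% of folds in the list.

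In the class II group, the boundary peaks lay at the regulators Rfxank and Rfxap and at H2-DMa, and not at the genes of the class II molecule. H2-Aa, H2-Ab1 and H2-Eb1, the chains of the I-A and I-E molecules, had no peak in any of the 4 lists, inside the gene or within 1 kb. Their nearest UTX MI-503 summits were 94921, 75404 and 118044 bp away. The invariant chain gene Cd74, whose product escorts class II molecules to the endosome, had no boundary peak. Inside Cd74, UTX MI-503 peaks of 6.57-fold (11 reads) and 5.94-fold (12 reads) lay 1964 and 3678 bp from its start, with Menin DMSO peaks of 4.22-fold (18 reads) and 5.52-fold (27 reads) at 1945 and 3666 bp. H2-DMb1 and H2-Oa, chains of the molecules that catalyse and restrain peptide exchange on class II, had none. Ciita, the master activator of class II genes, had no peak in any list, and its nearest summits were 12044 bp away for UTX MI-503 and 12076 bp away for Menin DMSO.

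H2-DMa, the other chain of the peptide exchange catalyst, had the highest fold of the 40 genes in the UTX MI-503 list, 39.3 (71 reads, chr17:34118603-34119891), which ranked 35th of 14231 by −log10 q. There was no UTX DMSO or Menin MI-503 peak, and the Menin DMSO peak was 12.4-fold (62 reads, chr17:34119135-34119782). These summits were 252 and 245 bp from the annotated H2-DMa start but lay inside Brd2, a bromodomain gene that spans chr17:34112019-34122814. They were 459 and 452 bp from a Brd2 start site, and at −3391 and −3384 relative to the nearest H2-DMa start site. At that H2-DMa start site stood a second pair of peaks, of 20.2-fold for UTX MI-503 (36 reads) and 8.995-fold for Menin DMSO (52 reads). They were closer to a Brd2 start site, at 109 and 41 bp, than to that of H2-DMa, from which they lay at −116 and −184. Further inside H2-DMa, 9998 and 9979 bp past a second annotated start site of the gene (34125518), lay a UTX MI-503 peak of 18.1-fold (32 reads) and a Menin DMSO peak of 3.84-fold (31 reads). That last pair lay beyond the end of Brd2. For the pairs near Brd2, which of the 2 genes they belong to was not tested.

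**Figure D3:**
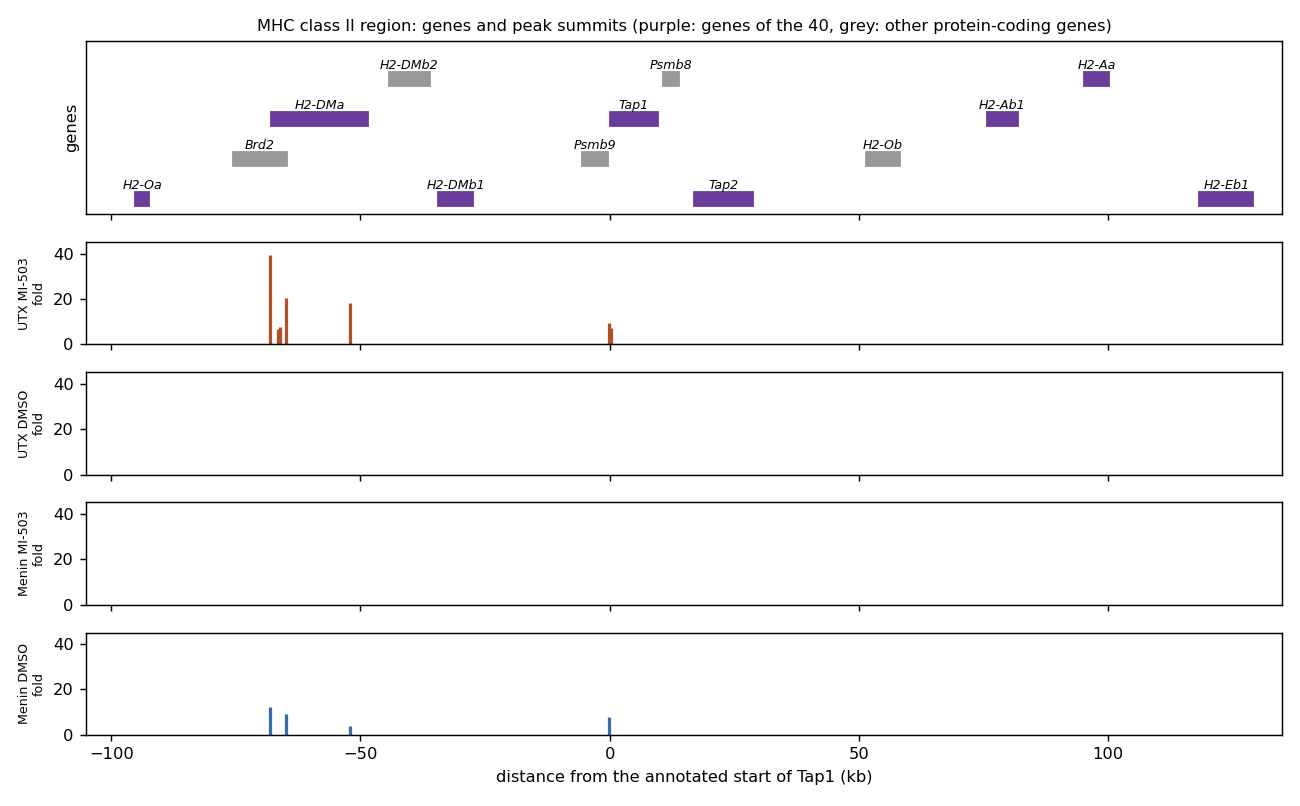
Map of 240 kb of chromosome 17 around Tap1, with distance from the annotated Tap1 start on the horizontal axis (kb): genes as boxes at the top and, for each peak list, a bar at each summit whose height is its fold. The UTX MI-503 panel holds 7 peaks and the Menin DMSO panel 4, all at Brd2, H2-DMa and Tap1, while the UTX DMSO and Menin MI-503 panels are empty.

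In the stretch of 240 kb around Tap1 that the map of the class II region shows, 7 UTX MI-503 and 4 Menin DMSO peaks were found, and none of the other lists. From the end of Tap1 to the end of H2-Eb1, over 119 kb that hold Tap2, H2-Ab1, H2-Aa and H2-Eb1, no list had a peak.

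The RFX complex, which binds the X box, has 3 subunit genes. Of these, Rfxank and Rfxap passed the boundary rule in UTX MI-503, which 36.5% of all genes did. Rfx5 failed that rule and was covered only at a start site inside the annotated gene, a measure that 39.1% of all genes met. Joining the measures followed sight of the values, and 3 genes are too few for a comparison. Rfxank had a UTX MI-503 peak of 22.4-fold (45 reads, chr8:70138944-70139537) and a Menin DMSO peak of 6.58-fold (70 reads, chr8:70139099-70139585), with summits 154 and 168 bp before its start. Beneath the Menin DMSO peak lay the highest background among the Menin DMSO peaks of the set, 9.78 reads. The Rfxank peaks of both lists are shared with the start of the divergent neighbour Borcs8, to which their summits lay closer, at 148 and 134 bp. Lesser UTX MI-503 peaks of 7.66-fold and 6.24-fold lay 585 bp before the Rfxank start and at its other end. Rfxap had UTX MI-503 peaks of 8.19-fold (14 reads) and 5.88-fold (10 reads) and a Menin DMSO peak of 7.38-fold (25 reads) at its upper end, with no start site in the promoter table. Neither gene had a UTX DMSO or a Menin MI-503 peak.

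Rfx5, the DNA-binding subunit, missed the boundary rule because the annotated gene begins 3327 bp before the UTX MI-503 summit, yet that summit lay 92 bp before the start site of its printed promoter. The peak there was 21.1-fold in UTX MI-503 (48 reads, −log10 q of 52.8, chr3:94953852-94954492). UTX DMSO had a 7.71-fold peak at the same place (20 reads, −log10 q of 8.40, chr3:94953960-94954090), with its summit 98 bp before the start site. This was the only UTX DMSO peak found inside any of the 40 genes or within 5 kb of their ends. Menin had none at Rfx5 in either treatment, and the nearest Menin DMSO summit was 17680 bp away. The Rfx5 case was found after its values were seen.

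In the interferon group, UTX MI-503 had a peak at all 3 receptor genes and Menin DMSO at 1. The shares over all genes were 36.5% and 31.2%, and 3 genes are too few for a comparison. Ifnar1, a chain of the type I interferon receptor, had UTX MI-503 peaks of 18.3-fold (34 reads, chr16:91484774-91485272), 5.53-fold and 5.49-fold (10 reads each), and a Menin DMSO peak of 13.3-fold (54 reads, chr16:91484872-91485195). That was the highest Menin DMSO fold of the 40 genes, and the main summits lay 198 and 168 bp before the start site. Ifnar2, its partner chain, had UTX MI-503 peaks of 9.30-fold (18 reads) and 6.48-fold (13 reads) just after its start. Another, of 4.05-fold, lay at its far end beside Il10rb. Menin DMSO had none at Ifnar2, its nearest summit being 5488 bp away. Ifngr2, a chain of the interferon gamma receptor, had a single UTX MI-503 peak of 5.29-fold (11 reads), 156 bp after its start, and no Menin peak. Ifnar1, Ifnar2 and Ifngr2 lie together on chromosome 16.

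Among the feedback inhibitors, Socs1 had peaks of both kinds. Its product blocks JAK kinases below interferon receptors. UTX MI-503 peaks of 8.76-fold (15 reads), 6.57-fold (11 reads) and 8.21-fold (14 reads) lay at −206, +114 and +460 of the Socs1 start site, and a Menin DMSO peak of 5.00-fold (18 reads) lay at +430. Socs3, which restrains cytokine signals through STAT3, had similar peaks that fell just outside the boundary rule, at 1117 bp for UTX MI-503 and 1200 bp for Menin DMSO. They were 8.76-fold for UTX MI-503 (15 reads), 147 bp after its start site, and 4.40-fold for Menin DMSO (16 reads), 230 bp after it. Usp18, which strips ISG15 from proteins and damps the type I receptor, had no peak in any list.

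Of 13 antiviral effector genes, UTX MI-503 had a peak at 4 (30.8%) and Menin DMSO at 2 of those (15.4%), beside 36.5% and 31.2% of all genes, so the UTX MI-503 share was near that over all genes. Trim25, a ubiquitin ligase that activates RIG-I, had a UTX MI-503 peak of 18.6-fold (34 reads, chr11:88999222-88999507) and a Menin DMSO peak of 9.68-fold (44 reads, chr11:88999246-88999502), with summits 28 and 38 bp before its start. Samhd1, an enzyme that depletes nucleotides and so limits retroviruses, had a UTX MI-503 peak of 18-fold (36 reads, chr2:157135121-157135495) and a Menin DMSO peak of 7.29-fold (36 reads, chr2:157135128-157135369), 192 and 181 bp before its start. Eif2ak2, which encodes the RNA-activated kinase PKR, had a UTX MI-503 peak of 7.05-fold (12 reads), 88 bp before its start, and no Menin peak. Mx2 passed the rule at 994 bp with a UTX MI-503 peak of 3.74-fold (11 reads) on a high background, in the lowest 0.509% of folds in the list. The remaining 9, which are Isg15, Ifit1, Ifit2, Ifit3, Mx1, Oas2, Oas3, Rsad2 and Bst2, had no peak in any list. These include the ubiquitin-like ISG15, the IFIT proteins that bind foreign RNA, the oligoadenylate synthetases and viperin, encoded by Rsad2.

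The RNA sensors and the editing enzyme had no boundary peak. Ddx58, which encodes RIG-I, had a UTX MI-503 peak of 8.15-fold (15 reads) inside the gene, 34222 bp from its start site. Ifih1, which encodes the sensor MDA5, had none. Adar, which edits double-stranded RNA, missed the rule at 1046 bp with a UTX MI-503 peak of 8.21-fold (14 reads), 277 bp after a start site. It also had a Menin DMSO peak of 4.68-fold (38 reads), 7 bp before a later start site 16242 bp into the gene. Mx2 at 994 bp and Adar at 1046 bp were the UTX MI-503 cases just inside and just outside the window. For Menin DMSO they were Socs1 at 430 bp and Socs3 at 1200 bp, followed by Isg15, whose nearest Menin DMSO summit of 4.14-fold was 1440 bp away.

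Both a UTX MI-503 and a Menin DMSO peak were found at 10 of the 40 genes (25%), beside 28.4% of all protein-coding genes. They were H2-D1, Tap1, Tapbp, H2-DMa, Rfxank, Rfxap, Socs1, Ifnar1, Samhd1 and Trim25. These 10 were 62.5% of the 16 genes with a UTX MI-503 peak, beside 77.8% over all genes, and all of those with a Menin DMSO peak. UTX MI-503 alone was found at 6 genes (15%), beside 8.1% of all protein-coding genes. These 6 were H2-K1, B2m, Mx2, Ifnar2, Ifngr2 and Eif2ak2. At a −log10 q of at least 5, B2m, Mx2 and Ifngr2 dropped out, leaving 13 of the 40 in UTX MI-503, with the 10 unchanged. Cutting the UTX MI-503 list to the length of the Menin DMSO list gave the same counts. Shares over all genes with both, or with UTX MI-503 alone, were not recounted at these settings. The contrast with all genes thus leans on 3 weak peaks and was not shown to hold without them. No gene of the 40 had Menin DMSO alone, against 2.85% over all genes, and 24 (60%) had neither, against 60.7%. In the class II group all 3 genes with a UTX MI-503 peak also had a Menin DMSO peak, in class I 3 of 5 and in the interferon group 4 of 8. Antibody and treatment differ together between these lists, so presence in both lists does not show the proteins together in one cell population.

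At those 10 genes the peaks of the 2 lists overlapped in 11 pairs, and the summits of a pair were 7 to 425 bp apart, with a median of 19 bp. The closest were H2-DMa at 7 bp, Trim25 at 10 bp and Samhd1 at 11 bp. UTX MI-503 peaks were also more numerous per gene: 31 different ones stood at 16 genes, 10 of which had more than 1, whereas 11 Menin DMSO peaks stood at 10 genes. They rested on 8 to 71 reads at the summit for UTX MI-503 and on 18 to 70 reads for Menin DMSO. Of these peaks, 9 for UTX MI-503 and 4 for Menin DMSO also counted for another gene. Peaks per gene were not counted over all protein-coding genes, so the higher UTX MI-503 number is not read as a trait of this set.

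**Figure D4:**
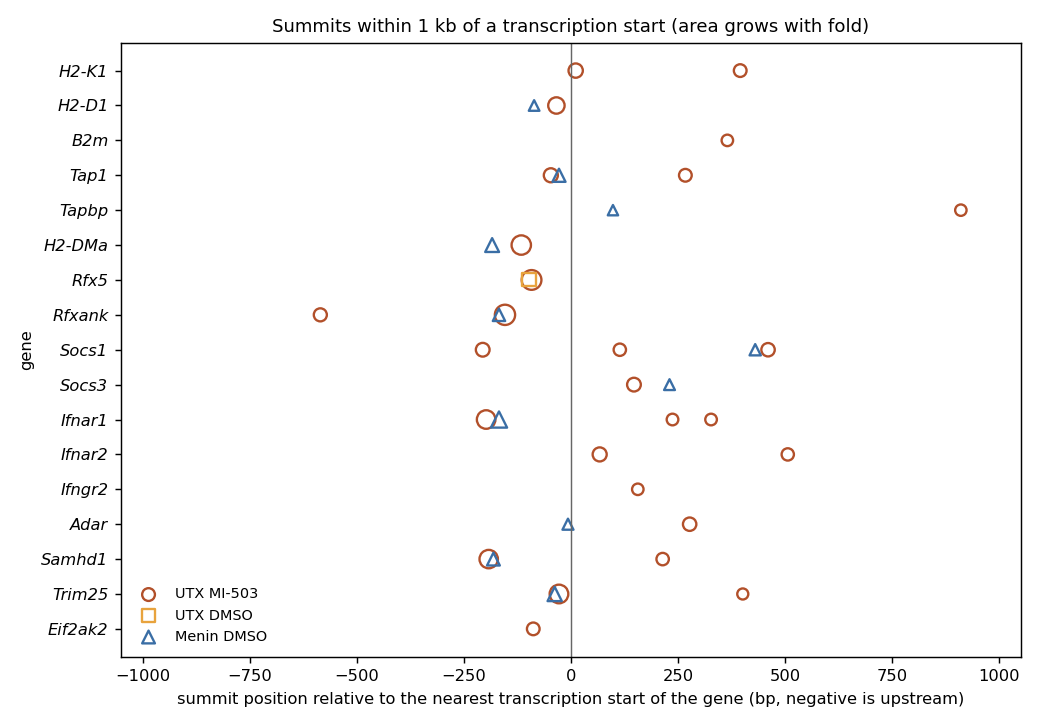
Position of each summit within 1 kb of a transcription start, relative to that start (bp, negative upstream), for the 17 genes with one; circles are UTX MI-503, the square UTX DMSO and triangles Menin DMSO, and the area grows with the fold. The large circles at H2-DMa, Rfxank, Ifnar1, Samhd1 and Trim25 lie between −198 and −28 with a triangle beside them. Rfx5 has a large circle and the square but no triangle.

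Measured from transcription starts instead, for the 30 of the 40 genes with an entry in the promoter table, 17 (56.7%) had a UTX MI-503 summit within 1 kb, beside 39.1% of 17492 protein-coding genes with an entry. Rfx5 alone had one in UTX DMSO (3.33%, beside 0.863%), none had one in Menin MI-503 (0% over all genes as well), and 11 (36.7%) had one in Menin DMSO, beside 33.5%. By this measure UTX MI-503 was found at 5 of 5 class I genes, 3 of 7 class II genes and 9 of 18 interferon genes. Menin DMSO was found at 3, 2 and 6 of them. The plot of summit positions shows the highest UTX MI-503 summit before the start at H2-D1, Tap1, H2-DMa, Rfx5, Rfxank, Socs1, Ifnar1, Samhd1, Trim25 and Eif2ak2. It shows it after the start at H2-K1, B2m, Tapbp, Socs3, Ifnar2, Ifngr2 and Adar.

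The promoters that lacked a UTX MI-503 summit were poorer in CpG. The 30 genes had 35 promoter windows of 300 bases, with a median of 14 CpG, beside 13 over all windows. The 19 windows within 1 kb of a UTX MI-503 summit had a median of 18 CpG (6 to 34), and the 16 without had a median of 5 (0 to 15). Over all protein-coding genes these medians were 23 and 5. For Menin DMSO the medians were 19 and 10.5 in the 40 genes, and 24 and 6 over all genes. None of the 8 windows of the set with fewer than 5 CpG had a UTX MI-503 summit, where the share over all genes was 2.32%. Of the 17 windows with 10 to 19 CpG, 11 had one, beside 49.9% over all genes. All 4 windows with 20 to 29 CpG and all 3 with 30 or more had one, beside 71.3% and 63.9%. The shares thus ran with the CpG count in the same direction as over all genes, and the part of CpG content in the presence of a peak was not tested. H2-Eb1 had 0 CpG in its window, Ifit3 1, H2-Aa, H2-DMb1 and H2-Oa 3 each and Isg15 6, while Socs3 and Ifngr2 had 31 each.

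**Figure D5:**
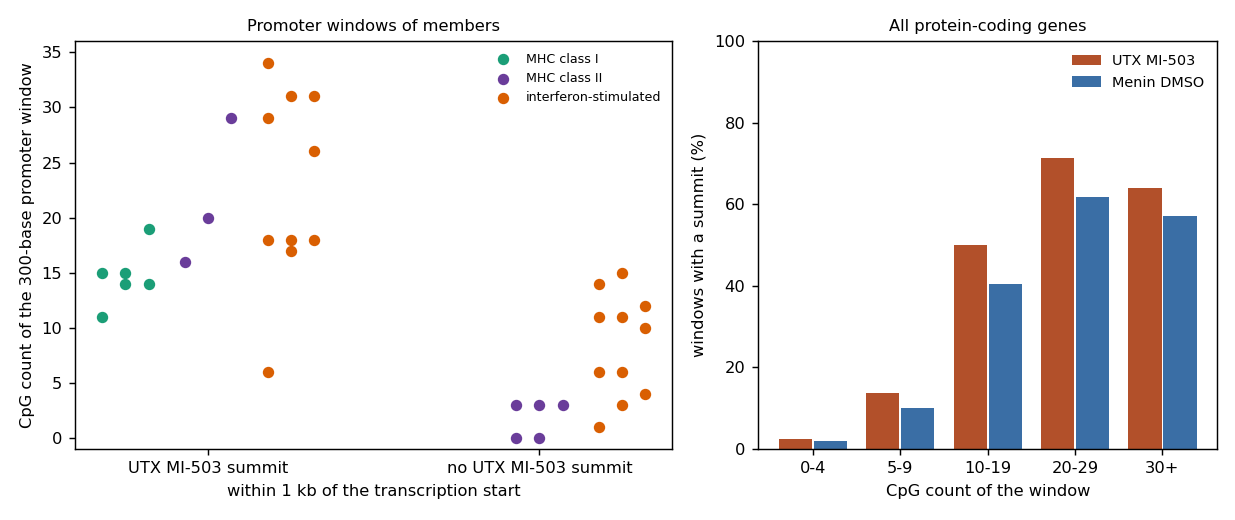
Left, the CpG count of each 300-base promoter window of the genes of the set, with and without a UTX MI-503 summit within 1 kb of the start site, coloured by group. Right, the percent of windows of all protein-coding genes with a UTX MI-503 or Menin DMSO summit by CpG count. Class II windows without a summit hold 0 to 3 CpG, and over all genes the UTX MI-503 share runs from 2.32% below 5 CpG to 71.3% at 20 to 29.

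Motifs of these pathways were counted in the same windows. CCAAT on either strand was in 6 of 6 class I windows, 7 of 8 class II windows and 8 of 21 interferon windows, beside 38.2% of all 21263 protein-coding windows. These windows came from 5, 7 and 18 genes. The H2-K1 windows overlap, so its promoter counts more than once. AGCAAC was in 3 of 8 class II windows, those of Rfx5, H2-Eb1 and H2-Oa, and in 4 of all 35, beside 14% over all. The response element was in 10 of 21 interferon windows, beside 3.35% over all. Of the interferon windows with a UTX MI-503 summit, 2 of 10 held it, those of Socs1 and Eif2ak2, and of those without, 8 of 11 did, beside 2.48% and 3.88% over all genes. TTCNNNGAA, a form of the interferon gamma activated site searched on both strands, was in 8 of 21 interferon windows, beside 7.69% over all. It was in 5 of 10 with a UTX MI-503 summit and 3 of 11 without, beside 6.34% and 8.51% over all genes. The response element and TTCNNNGAA may share bases, overlapping copies were counted, and a match is a stretch of letters and not a shown binding site.

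The wider pathways were covered unevenly. Of 21 other genes of antigen processing and the MHC, 14 (66.7%) had a UTX MI-503 peak, with a median of 7.25-fold, beside 36.5% of all genes. A Menin DMSO peak was at 7 (33.3%), with a median of 8.86-fold, beside 31.2% of all genes, which is about the same share. The highest in UTX MI-503 were the chaperones of class I assembly in the endoplasmic reticulum, while in Menin DMSO Psme2, at 13.8-fold, stood above them. Calr (calreticulin) had 32.2-fold in UTX MI-503 and 11.1-fold in Menin DMSO, Canx (calnexin) 31.9-fold and 10.6-fold, and the disulfide isomerase gene Pdia3 17.8-fold and 8.86-fold. Psmb9 followed with the peaks it shares with Tap1, and the class I-like gene H2-T22 with 9.29-fold in UTX MI-503 and 4.80-fold in Menin DMSO. Of 30 other interferon-stimulated genes, 4 (13.3%) had a peak in UTX MI-503 and 4 (13.3%) in Menin DMSO, each share below that over all genes, with medians of 5.71-fold and 4.32-fold. Those with a UTX MI-503 peak were Trim21 (7.68-fold), which encodes a cytosolic antibody receptor, Tor3a (6.58-fold), Ifi27 (4.85-fold) and Oas1b (4.55-fold). Trim21 and Oas1b also had Menin DMSO peaks, of 17.3-fold and 4.01-fold.

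Genes that sense nucleic acids or carry the interferon signal were counted in the same way, and each count below is read beside 36.5% of all genes for UTX MI-503 and 31.2% for Menin DMSO. Of 12 sensing genes, 8 (66.7%) had a peak in UTX MI-503 and 4 (33.3%) in Menin DMSO. The kinase gene Tbk1 had 11.5-fold and 8.81-fold, Tmem173, which encodes STING, had 6.87-fold and 3.90-fold, and the adaptor gene Mavs had 5.91-fold and 4.85-fold, each for UTX MI-503 and then Menin DMSO. Ikbke (5.62-fold), Myd88 and Tlr9 (5.47-fold each) had UTX MI-503 alone. Of 9 interferon regulatory factor genes, 5 (55.6%) had a peak in UTX MI-503 and 4 (44.4%) in Menin DMSO, led by Irf3 at 17.0-fold and 8.13-fold and Irf2 at 14.7-fold and 6.50-fold. Irf1 had 13.1-fold and 7.68-fold, Irf9 12.6-fold and 5.996-fold, and Irf8 had 6.57-fold in UTX MI-503 alone. Of 12 genes for JAK kinases, STAT factors and the remaining interferon receptor chain, 8 (66.7%) had a peak in UTX MI-503 and 6 (50%) in Menin DMSO. Stat3 had 21.5-fold and 11.6-fold, Stat2 20.9-fold and 11.2-fold, and Ifngr1 12.7-fold and 17.1-fold, and Stat6 had 6.99-fold in UTX MI-503 alone. None of the genes of these 5 wider lists had a UTX DMSO or Menin MI-503 peak.

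No file here measures RNA, and occupancy does not check a cell type. The shares over all genes for the counts that follow are 36.5% for UTX MI-503 and 31.2% for Menin DMSO. Of 7 myeloid progenitor genes, 2 (28.6%) had a UTX MI-503 peak, Spi1 (15.9-fold) and Cebpa (6.99-fold), and 3 (42.9%) a Menin DMSO peak, Spi1 (12.1-fold), Cebpa (5.63-fold) and Kit (4.27-fold). Of 7 genes of B cells and dendritic cells, the class II-bearing lineages, Xcr1 alone (14.3%) had boundary peaks, of 10.2-fold in UTX MI-503 and 8.61-fold in Menin DMSO. The UTX MI-503 summit lay 10332 bp from the Xcr1 start site, at the other end of the gene. Cd79a, Pax5, Ms4a1, Itgax and Zbtb46 were among those with no boundary peak in any list. Inside Itgax lay peaks of 7.64-fold in UTX MI-503 and 8.70-fold in Menin DMSO, and inside Pax5 a UTX MI-503 peak.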

How the data were processed

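UTX and Menin peak lists of 4 libraries from WT-MA9 cells were analysed. Peaks were called with MACS2 on mm10 per the submitters' processing notes. Neither the MACS2 version, nor aligner, nor q threshold is given in the sources used here. The names of peaks pair both UTX lists with one vehicle input and both Menin lists with another. The deposited fold is a ratio, the deposited −log10 values are the p-value and q-value of the summit, and the deposited score follows −log10 q and was not used. Labels gave each library's group.

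Gene boundaries and promoter windows of 300 bases came from RefSeq tables for GRCm38.p6, the assembly of mm10. The gene table has no strand, so start and end there are the lower and upper coordinates, while start sites come from the promoter table. It matched 30 of the 40 genes and lacked Tap2, Nlrc5, Ciita, Cd74, H2-Ab1, Rfxap, Mx1, Mx2, Oas2 and Usp18. The gene table matched all 138 names searched. Positions count from 1. Reads at a summit were recovered by solving the fold and the p-value together, which gave whole reads within 0.002 of −log10 p in 100% of peaks in each list, against at most 37% at any other step tried. They are distinct from any total depth, which is unknown. The searches and the solver were tested on simulated data.

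The genes and lists were chosen with earlier results of these data known, so no list is independent evidence. Every one of the 40 genes is accounted for, and of each wider list up to 5 genes with the highest UTX MI-503 fold are named, ties included, except that some genes the rule takes are not reported here. The main counts of genes with a peak, for the 40 genes, their groups and the wider lists, are set beside the share of all protein-coding genes. Python 3.11.15, pandas 2.3.3, numpy 2.4.6, scipy 1.17.1 and matplotlib 3.10.9 were used. Alternatives changed the window, the q and fold thresholds, the boundary, the overlap, the list length and the gene set.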

Additional observations from a re-analysis of the deposited data

How the results depend on the processing

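No paired analysis was possible because the labels give no replicate numbers and each condition had 1 library.

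For the 40 genes, the UTX MI-503 count of 16 became 12 to 22 and the Menin DMSO count of 10 became 7 to 14 over all the alternatives tried, and genes with both were 7 to 13. The shares of all protein-coding genes moved with these settings too. They ran from 25.3% to 44.5% for UTX MI-503, against 36.5%, and from 23.3% to 38.9% for Menin DMSO, against 31.2%. The counts that moved by more than 1.5 times were few. With a window of 5 kb, or with summits anywhere in the gene, class II genes with a UTX MI-503 peak numbered 5 of 11, against 3, through Cd74 and Rfx5. The share over all genes was 44.5% in either setting. Under the same settings, at transcription starts only, and at a start, an end or a transcription start (an alternative chosen after seeing the data), 1 gene, Rfx5, had a UTX DMSO peak, against 0 of the 40 and of class II. With −log10 q of at least 10, the interferon genes with a UTX MI-503 peak numbered 5 of 22, against 8, beside 25.3% of all genes. At that threshold the class I genes with a Menin DMSO peak numbered 1 of 7, against 3, beside 23.3% of all genes, Tap1 being the one left. No Menin MI-503 peak was gained under any alternative. Over all 49943 genes of the table, pseudogenes and RNA genes included, the shares with a peak were 19.4% for UTX MI-503, 0.422% for UTX DMSO and 16.5% for Menin DMSO. The UTX MI-503 peaks of B2m, Mx2 and Ifngr2 were lost at a −log10 q of 5, and rest on 9 to 11 reads each.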

Other observations

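Several class I-like genes of the wider MHC list, named here after their values were seen, had a UTX MI-503 peak and no Menin DMSO peak at a boundary: H2-Q7 and H2-T23 (6.02-fold each), H2-Q6 (5.68-fold) and H2-M3 (5.48-fold). H2-T22 of the same list had both, of 9.29-fold in UTX MI-503 and 4.80-fold in Menin DMSO, and H2-Q4 had no peak in any list. Over all protein-coding genes, 8.1% had UTX MI-503 alone. H2-Q6 and H2-Q7 are near-identical copies, so reads at either cannot be assigned with certainty. H2-K1 and B2m, the genes of the class I molecule with UTX MI-503 alone, had folds of 9.73 and 5.31 in the same list. The proteasome activator genes Psme1 and Psme2 are neighbours on chromosome 14 and had UTX MI-503 peaks of 8.49-fold and 8.75-fold, and Psme2 also had a Menin DMSO peak of 13.8-fold.

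Menin DMSO alone, which no gene of the 40 showed, was found at 2 of the 30 other interferon-stimulated genes, Ifi35 (4.47-fold) and Cmpk2 (4.17-fold). The share over all protein-coding genes was 2.85%, and counts this small were not read as a difference between the sets. Cmpk2 is the neighbour of Rsad2 on chromosome 12, and the nearest Menin DMSO summit to Rsad2 was 12746 bp away. These values are descriptions of single libraries.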
